A study of Mus musculus and Homo sapiens with 56 samples.

Results

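The m6A map of control HEK293T cells consists of 2 peak lists, each made from 1 m6A immunoprecipitate (IP) and its input. HEK293T is a human embryonic kidney line transformed with adenoviral and SV40 genes. The cells carried a lentiviral short hairpin RNA against GFP (shGFP), which has no target in human cells, and had been selected with puromycin. The series asks how m6A relates to the histone mark H3K9me2, in HEK293T cells and in mouse embryonic stem cells. In HEK293T the shGFP cells stand beside cells with hairpins against the m6A demethylases ALKBH5 and FTO, whose lists were not used here. The map rests on 4 of the 56 samples, 2 IP and 2 input libraries, taken by their labels. RNA came from chromatin, was fragmented and was bound with an anti-m6A antibody. Replicate 1 held 19720 peaks and replicate 2 held 18745 peaks. Members of the map are the 14772 reproducible regions, where peaks of both lists overlap by 1 bp or more, out of 22780 regions in either list. Whether the replicates came from separate infections or cultures is not given in the labels.

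N6-methyladenosine is the most common internal modification of messenger RNA. A complex with METTL3 and METTL14 writes it while the RNA is being transcribed, ALKBH5 and FTO can remove it, and YTH domain proteins read it, YTHDC1 in the nucleus. In mature human messenger RNA the mark is known to gather around stop codons, in last exons and in long internal exons, so that a single transcript often carries several sites close together. The peak lists name no strand and no gene, and no human annotation was used here, so regions are given by position on build hg38 only, and no sequence is shown. The peak lists hold no RNA levels, so the identity of the kidney line was not checked against markers. The RNA came from bulk cells, so a site methylated in fewer cells and one methylated on fewer RNA copies per cell cannot be told apart.

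Each peak comes with a fold enrichment of IP over local background at its summit, a -log10 p and a -log10 q, all as the authors deposited them. Fold and p together fix the number of IP reads that cover the summit and the background they were set against. That background is the input scaled to the depth of the IP, with a lowest possible value for the whole genome. Solving for both gave a whole number of IP reads for 100% of the peaks in each list, within 0.001 of the deposited -log10 p. A second whole number lay within that tolerance for 0.33% of peaks in replicate 1 and 0.107% in replicate 2. The floor of the background was 0.200 reads in replicate 1 and 0.305 reads in replicate 2. Fragment length was taken as the smallest peak width, 291 bp in replicate 1 and 282 bp in replicate 2. Per base of this length, the floor makes the IP of replicate 2 1.57 times as deep as that of replicate 1. The inputs differed 1.12-fold, also in favour of replicate 2. The floor corresponds to 0.689 IP reads per kb of the genome as the caller sized it in replicate 1 and 1.08 in replicate 2. Scaling put 4.48 input reads to each IP read in replicate 1 and 3.20 in replicate 2.

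Most peaks of each list were found in the other. Of the peaks in replicate 1, 15394 of 19720 or 78.1% overlapped a peak of replicate 2 (exact binomial 95% interval 77.5 to 78.6%). In replicate 2 the count was 15061 of 18745, or 80.3% (79.8 to 80.9%). These intervals cover counting error only, and neighbouring peaks are not independent. Shared bases made up 78.0% of the bases covered in replicate 1 and 76.1% of those in replicate 2. The 14772 reproducible regions covered 12.3 Mb, and 9450 were left at a -log10 q of at least 10. In 94.3% of them, or 13931, each list had exactly 1 peak. Replicate 1 split the region into more peaks in 563 cases and replicate 2 in 250, with at most 4 peaks of a list in a region.

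Reproducibility followed the strength of a peak. Each list was ranked and cut into 10 classes of equal size. In the class of highest fold enrichment, 99.9% of replicate 1 peaks and 100% of replicate 2 peaks were found in the other list. In the class of lowest fold the shares were 50.3% in replicate 1 and 53.8% in replicate 2, and in the next class 48.1% and 57.9%. Ranked by IP reads, the classes of the lists cover different read numbers. The class with fewest IP reads, 3 to 6 in replicate 1 and 4 to 9 in replicate 2, was shared at 26.3% in replicate 1 and at 51.4% in replicate 2. The next class of replicate 1, 6 to 9 reads, was shared at 47.3%. Peaks with 50 or more IP reads at the summit were shared at 99.2% in replicate 1 (2709 peaks, exact interval 98.77 to 99.49%) and at 99.3% in replicate 2 (3526 peaks, 99.02 to 99.59%). Below 10 IP reads the share was 41.2% of 4820 peaks in replicate 1 (39.8 to 42.6%) and 52.9% of 2543 peaks in replicate 2 (50.9 to 54.8%). From 10 to 20 reads the order turned, with 79.3% in replicate 1 and 68.7% in replicate 2. From 20 to 50 reads the shares were 96.8% and 90.9%. These read limits were the same in both lists, although the IP of replicate 2 was 1.57 times as deep. Equal read numbers are therefore not equal strength, and the part of depth in this order was not tested.

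**Figure D1:**
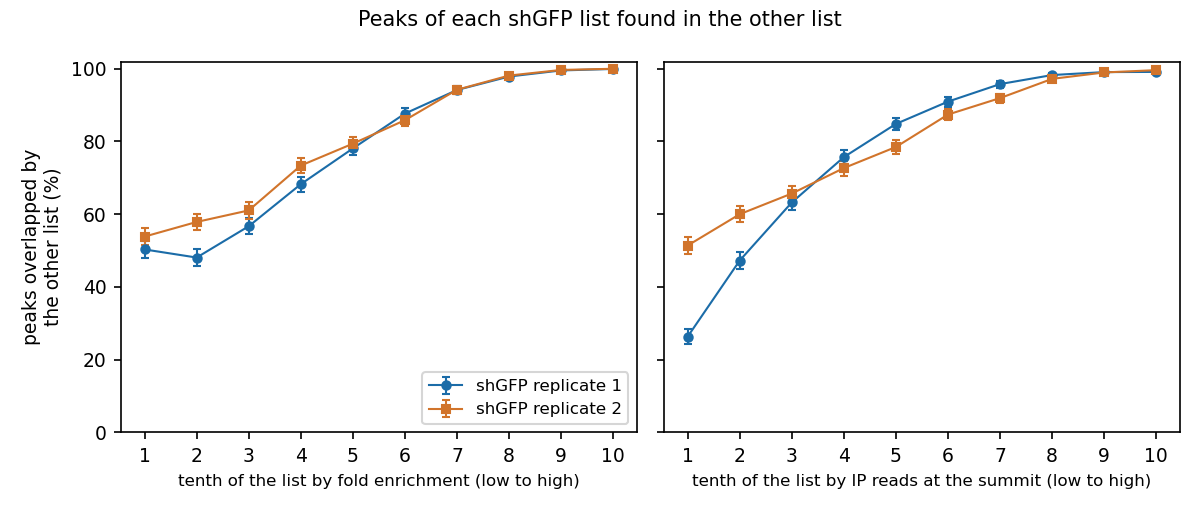
Share of the peaks of each shGFP list (vertical axis, percent) that overlap a peak of the other list, in 10 classes of the list ranked by fold enrichment (left) or by IP reads at the summit (right); bars are exact binomial 95% intervals. The share is near 100% in the top classes, and in the bottom class by IP reads it is 26.3% in replicate 1, at 3 to 6 reads, and 51.4% in replicate 2, at 4 to 9 reads.

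Reproducible peaks were stronger, broader and deeper than peaks of a single list. Their median fold enrichment was 9.50 in replicate 1 and 9.14 in replicate 2, against 5.62 and 5.67 for the 4326 and 3684 peaks of a single list. The median number of IP reads was 22 for reproducible peaks in replicate 1, against 8 for its single-list peaks, and 26 against 12 in replicate 2. Median widths were 569 and 592 bp for reproducible peaks, against 328 and 333 bp for single-list peaks. A wider peak meets the overlap rule of 1 bp more easily, and the part of this in the width contrast was not tested. Peaks of the smallest width in their list, taken as the fragment length, made up 3.62% of reproducible and 27.1% of single-list peaks in replicate 1. In replicate 2 they made up 3.10% and 18.02%. Background at its floor was recorded for 4.35% of reproducible and 22.2% of single-list peaks in replicate 1. In the deeper replicate 2 these shares were 5.52% and 8.50%. Depth moves with this contrast between the lists, and its part in the contrast was not tested.

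Single-list peaks lay no closer to the other list than peaks of a list lay to each other. Of those in replicate 1, 17.0% had a peak of replicate 2 within 1 kb and 44.5% within 10 kb, with a median distance of 15102 bp. For single-list peaks of replicate 2, 23.5% had a replicate 1 peak within 1 kb and 55.2% within 10 kb, with a median distance of 6848 bp. Among all peaks of a list, 26.3% in replicate 1 and 25.6% in replicate 2 had a neighbour of the same list within 1 kb, and 56.3% in either list within 10 kb, at median distances of 6422 and 6416 bp. The strongest single-list peak of replicate 1 by q, chr7:155463464-155463821, had 37 IP reads and a fold of 17.95, and ranked 3302 of 19720 in its list. The nearest peak of replicate 2 was 725 bp away. A pair among its first 5, chr17:19187784-19188198 and chr17:19064040-19064358, had other proportions. These had 163 and 147 IP reads but folds of only 3.46 and 3.37, against backgrounds of 46.4 and 42.9 reads, and no replicate 2 peak within 41828 bp. In replicate 2 the strongest single-list peak was chr22:36294162-36294493, with 66 IP reads, a fold of 7.33 and rank 4318 of 18745, and the nearest replicate 1 peak lay 57118 bp away. Next came chr21:6445216-6445849, with 26 reads and a fold of 17.5, and no replicate 1 peak within 197490 bp.

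Enrichment in the reproducible regions had a median fold of 9.66 in replicate 1 (quartiles 6.72 and 14.7) and 9.19 in replicate 2 (quartiles 6.58 and 13.7). The highest fold was 76.8 in replicate 1 and 62.4 in replicate 2. Both lists gave a fold of 10 or more in 5325 regions, or 36.0%, and of 20 or more in 1072 regions, or 7.26%. Behind these folds stood a median of 22 IP reads in replicate 1 (quartiles 13 and 40) and 27 in replicate 2 (quartiles 15 and 48). The median background was 1.17 reads in replicate 1 and 1.76 in replicate 2. Only 325 regions, or 2.20%, had a background at the floor in both lists. Nearly all regions thus had a background above the floor in at least 1 list. A single input read over the fragment length is enough for this. It counted as 0.223 reads in replicate 1 and 0.313 in replicate 2, above floors of 0.200 and 0.305.

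By the sum of their ranks in both lists, the strongest region was chr7:135185578-135186482. It had 114 IP reads over a background of 0.650 in replicate 1, a fold of 69.7, and 96 reads over 0.882 in replicate 2, a fold of 51.5. The summits of the lists lay 9 bp apart. Second was chr6:73194380-73195516, at 57.7-fold and 52.5-fold in replicates 1 and 2, with 83 and 107 IP reads. Next was chr5:178121200-178122404, which had the highest fold of replicate 1, 76.8, from 93 IP reads over a background of 0.223, the value of a single input read. In replicate 2 it reached 45.1-fold with 80 reads over 0.794. The highest fold of replicate 2, 62.4, belonged to chr12:82895603-82896617, ranked 44 in replicate 1 with 45.5-fold. The other 8 of the first 12 had between 66 and 106 IP reads in each list. Their folds were 44.3 to 56.4 in replicate 1 and 40.0 to 55.5 in replicate 2. Of the 12, 10 were isolated, with no other reproducible region within 10 kb. Among all reproducible regions 52.0% were isolated.

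**Figure D2:**
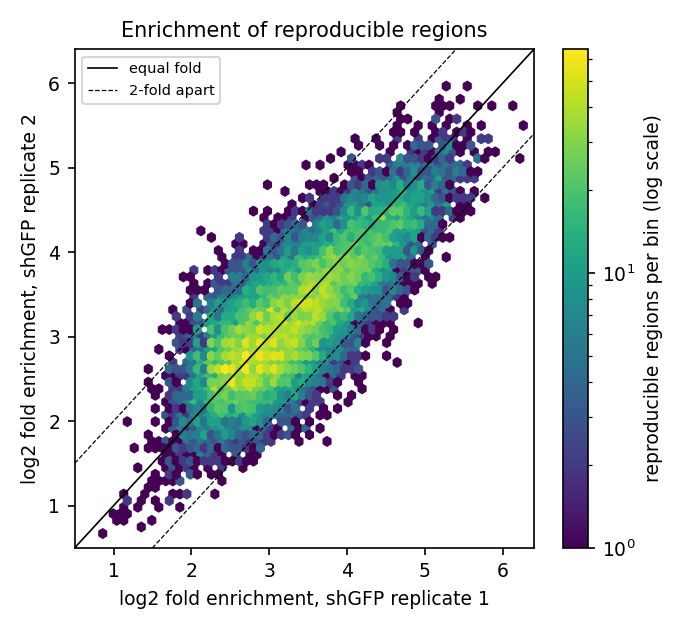
Log2 fold enrichment of the 14772 reproducible regions in shGFP replicate 1 (horizontal) and replicate 2 (vertical); colour gives the number of regions per bin on a log scale, the solid line equal values and the dashed lines a 2-fold difference. The cloud follows the solid line, with 95.3% of regions between the dashed lines.

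A region's deposited fold in replicate 2 was typically close to its deposited fold in replicate 1. The median log2 difference, replicate 2 minus replicate 1, was -0.10 (quartiles -0.41 and 0.23), with an SD of 0.49 over regions. In 76.8% of regions the lists lay within 1.5-fold of each other and in 95.3% within 2-fold, while 692 regions differed by more. Fold was the higher one in replicate 1 in 58.1% of regions. This deposited fold has 1 read added to IP and to background. For IP reads over background without the added read, the median log2 difference was -0.30, with an SD of 0.70. Across the 14772 regions, log2 fold correlated between the lists at r = 0.80 (Spearman 0.77). For log2 IP reads the correlation was 0.92, and for log2 background 0.89. These correlations run over regions of the same 2 pairs of libraries and describe the lists, and regions called in a single list do not enter them.

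The spread in IP reads between the lists narrowed as read numbers grew, and it is given beside the SD that Poisson counting would have. The 5 classes of read number held 2954 or 2955 regions each. Among regions with most IP reads, 101 to 893 in both lists together, the log2 ratio of IP reads had an SD of 0.26, against 0.24 from the Poisson error of the 2 read numbers. In the middle class, 40 to 60 reads, the SD was 0.46, against 0.42 from counting. In the lowest class, 8 to 26 reads, it was 0.55, under the 0.69 from counting, for regions that had to pass the threshold of both lists. This selection shapes the comparison, no source used here states how duplicates were handled, and the part of counting in the spread was not tested. Fold enrichment spread more than IP reads in the highest and middle classes, with an SD of 0.40 and 0.52. In the lowest class the SD of fold was 0.51, under the 0.55 of IP reads. Fold also carries the error of the background, and the part of that error in the spread was not tested. The median log2 difference in fold was 0.01 in the lowest class and -0.24 in the highest.

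**Figure D3:**
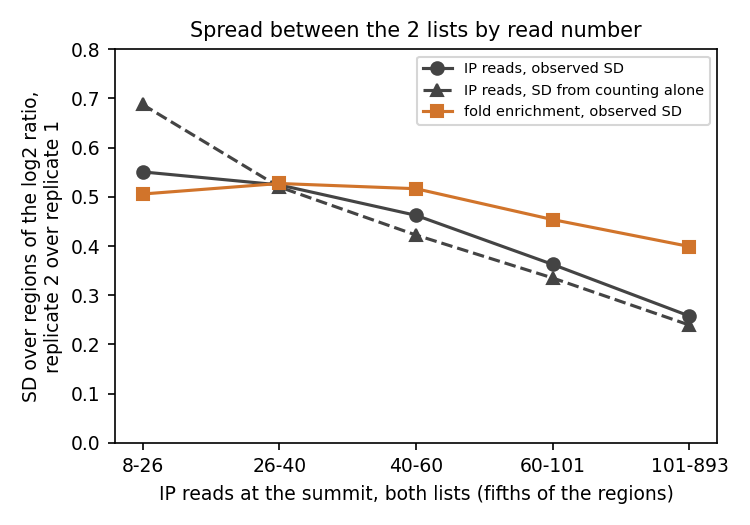
SD over regions of the log2 ratio between the 2 shGFP lists (vertical) in 5 classes of the reproducible regions by the IP reads of both lists (horizontal), for IP reads as observed, for IP reads from Poisson counting alone, and for fold enrichment. The observed and the counting SD of IP reads are 0.26 and 0.24 in the highest class, while the SD of fold stays at 0.40 there.

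Although its IP was deeper, replicate 2 had only slightly more IP reads in the regions. Its IP reads were higher in 71.3% of regions, with a median log2 difference of 0.24, and its background was higher in 81.8%, with a median log2 difference of 0.54. Set against the floor of each list, the median region held 110-fold the genome-wide background in replicate 1 and 88.5-fold in replicate 2. The median log2 difference on that scale was -0.36. The lists differed by more on this scale than in the deposited fold, where the median log2 difference was -0.10. The deposited fold uses the local background and also adds 1 read to both sides of its ratio. With the local background and no added read, the median log2 difference was -0.30.

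The 8 regions of largest disagreement in each direction are described here as examples. They were selected for the difference, among regions above the median fold of at least 1 list, so the values are a description only. At chr19:2078160-2078619 replicate 1 had 10 IP reads over 1.56 and a fold of 4.29, and replicate 2 had 30 reads over 0.626 and a fold of 19.1. All 8 regions higher in replicate 2 had 4 to 16 IP reads in replicate 1 and 17 to 35 in replicate 2. In the other direction, chrX:14668776-14669660 had 28 IP reads and a fold of 13.7 in replicate 1, against 12 reads and 3.41 in replicate 2. In 3 of the 8 regions higher in replicate 1 the IP reads lay within 10 of each other and the backgrounds did not match. One of them, chr19:43995980-43997684, had 41 and 42 IP reads in replicates 1 and 2, over backgrounds of 0.390 and 3.75, and folds of 30.2 and 9.04.

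Summits of the lists lay close together in most regions. The strongest summits of the lists lay a median of 31 bp apart, 61.0% within 50 bp and 78.0% within 100 bp, and 2.71% more than 500 bp apart. In the highest class of IP reads the median distance was 13 bp, and in the lowest 60 bp. The median distances are small beside the fragment length. It was taken as the smallest peak width, 291 bp in replicate 1 and 282 bp in replicate 2.

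Regions had a median width of 682 bp, quartiles 490 and 1011 bp, as the union of both lists. Within the lists, the strongest peak of a region had a median width of 574 bp in replicate 1 and 598 bp in replicate 2, and it was wider in replicate 2 in 53.9% of regions. Width rose with enrichment. Of 5 classes by fold, the lowest had a median width of 505 bp and the highest 1076 bp, and the rank correlation of width and fold over regions was 0.54. Both measures come from the same reads. More than 1 kb was covered by 3780 regions, or 25.6%, more than 2 kb by 483 and more than 5 kb by 12.

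The widest region, chr9:40904996-40915780, spanned 10785 bp. Replicate 2 called it as 1 peak of 13.9-fold and replicate 1 as 4 peaks, the strongest of 15.5-fold. The next were chr8:143915638-143922473 with 6836 bp, chr4:125314859-125321674 with 6816 bp and chr3:49651347-49658126 with 6780 bp. Replicate 1 split these into 2, 3 and 3 peaks and replicate 2 called 1 in each. In chr4:125314859-125321674 the fold was 36.8 in replicate 1 and 24.8 in replicate 2. At chr16:31076173-31081842, 5670 bp wide, both lists called a single peak with the summit at the same base, at 19.8-fold and 21.9-fold in replicates 1 and 2. Of the 8 widest, replicate 1 had more peaks than replicate 2 in 6, and the lists had equal numbers in the other 2.

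Chromosomes 1 to 22 and X all carried regions, at unequal density. Chromosome 19, the human chromosome known for its high gene density, had 758 regions, or 13.0 per Mb of the span between its outermost peaks. Replicate 1 alone had 16.8 peaks per Mb there and replicate 2 had 15.9. Chromosomes 22, 17 and 16 followed with 9.44, 9.33 and 7.56 regions per Mb. The order of 22 and 17 turned in each other setting checked. Lowest were chromosomes 13, X and 18, at 3.43, 3.41 and 3.08, so that the densest and the sparsest of the 23 chromosomes differed 4.22-fold, around 5.01 per Mb for all together. Regions covered 1.24% of the span of chromosome 19 and 0.256% of that of chromosome 18. The shares of peaks found in the other list differed less, from 72.5% on chromosome 8 to 84.0% on chromosome 16 in replicate 1, and from 76.2% on chromosome 21 to 84.4% on chromosome 19 in replicate 2. Median fold lay between 8.70 on chromosome X and 10.5 on chromosome 19, and density and median fold had a rank correlation of 0.33 over the 23 chromosomes. Chromosome 18, the sparsest, had a median fold of 10.2.

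**Figure D4:**
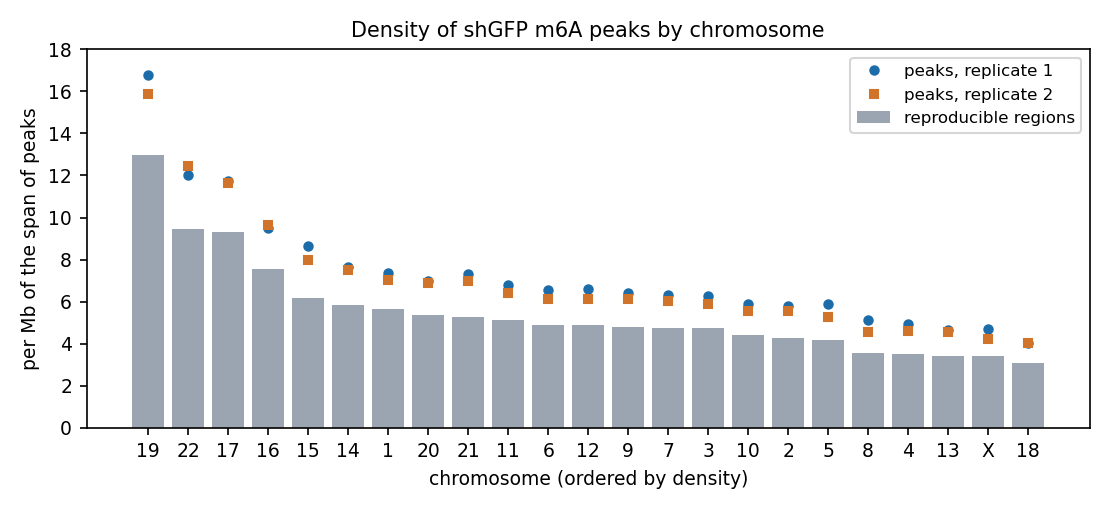
Reproducible regions (bars) and peaks of each shGFP list (points) per Mb of the span between the outermost peaks, for chromosomes 1 to 22 and X, ordered by density. Chromosome 19 stands at 13.0 regions per Mb and chromosome 18 at 3.08, and both lists follow nearly the same order.

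Within chromosomes the regions gathered in part of the sequence. Of 2953 windows of 1 Mb, 75.8% held at least 1 region, at a mean of 4.99 and a variance 6.54 times the mean. The densest 487 windows, 16.5% of them, held 50% of the regions. The fullest window, chr16:2000001-3000000, held 51 regions, from 60 peaks of replicate 1 and 61 of replicate 2. Next were chr16:89000001-90000000 with 46 regions, chr8:144000001-145000000 with 44 and chr16:3000001-4000000 with 43. The window chr16:1-1000000 had 40 regions, with 48 peaks in replicate 1 and 64 in replicate 2, the largest gap between lists among the 10 fullest. Of these 10, 9 lay within 5 Mb of the outermost peak of their chromosome, on chromosomes 8, 16, 17 and 19. The exception was chr16:30000001-31000000, with 38 regions. Over all chromosomes, 16.4% of regions lay within 5 Mb of an outermost peak, in 7.82% of the span. Over the 2433 windows with a peak in either list, the 2 lists' peak numbers correlated at r = 0.96.

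Neighbouring regions were often close. The median distance to the nearest region was 11296 bp (quartiles 1732 and 49512 bp), with 2810 regions within 1 kb of another, 48.0% within 10 kb and 86.1% within 100 kb. This median was 6422 and 6416 bp among the peaks of replicates 1 and 2 alone, 21168 bp at a -log10 q of at least 10 and 19181 bp with peaks up to 1000 bp apart merged. The largest distance from a region to its nearest region was 9566149 bp. Joining regions no more than 10 kb apart gave 2777 runs of 2 or more regions, with 48.0% of all regions, and left 7680 regions isolated. Runs of 2 were the most common, with 1897, while 151 runs held 5 or more regions and 7 held 10 or more. Runs of 5 or more spanned a median of 17.0 kb and at most 62.9 kb.

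The largest run, chr17:80331907-80394838, held 18 regions over 62.9 kb, with 21 peaks in replicate 1 and 18 in replicate 2. Its folds ran from 3.81 to 18.98, with a median of 6.68. The second, chr14:104931768-104955242, was far denser. Its 12 regions covered 65.1% of 23.5 kb, at a median fold of 14.3. The run chr16:87679244-87703828 held 11 regions over 24.6 kb, from 4.52-fold to 26.2-fold, and chr19:58433397-58481051 held 11 over 47.7 kb, from 5.25-fold to 30.7-fold. At chr2:176093406-176131759 and chr17:48595787-48636750, 10 regions each covered 14.7% and 13.9% of about 40 kb as narrow peaks, the widest 878 and 820 bp, at median folds of 7.44 and 7.60. In chr11:62516889-62534313, by contrast, 9 regions covered 86.8% of 17.4 kb.

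Members of long runs had no higher median fold than isolated regions. It was 8.75 for the 921 regions in runs of 5 or more, against 9.61 for the 7680 isolated regions. Median widths were 694 bp in such runs and 677 bp for isolated regions. Background was higher in runs, with a median of 1.69 reads in runs of 5 or more and 1.12 for isolated regions in replicate 1, and 2.38 and 1.59 in replicate 2. More input reads at a locus move with the number of regions called there, and the part of this in the clustering was not tested.

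Neighbours up to 10 kb apart were more alike in background than in IP reads, and least in fold enrichment and width. Adjacent regions up to 1 kb apart (1514 pairs) correlated in log2 background at r = 0.82 in replicate 1 and 0.83 in replicate 2, and in log2 IP reads at 0.41 and 0.49. In log2 fold they correlated at 0.09 in replicate 1, 0.14 in replicate 2 and 0.11 for the mean of both. For 2801 pairs 1 to 10 kb apart the values were 0.61 and 0.63 for background and 0.07 for the mean fold. At 10 to 50 kb (3509 pairs) background still correlated at 0.29 in both lists and mean fold at 0.02, and beyond 200 kb both were under 0.05. The sources used here give no window for the background. The background was at the floor or a whole number of input reads over the fragment length or 1 kb in most peaks. These made up 88.4% of all peaks in replicate 1 and 88.2% in replicate 2. A caller that reads the background from up to 10 kb, the default, lets close neighbours share input reads by construction. The part of this in the correlations was not tested. Widths of neighbours up to 1 kb apart correlated at 0.08.

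Whole runs were compared in the same way. Among 880 runs of 3 or more regions, with 3298 regions, 63.8% of the variance of log2 background in replicate 1 and 64.5% in replicate 2 lay between runs. For log2 fold, 10.3% lay between runs, and regions of the same run differed with an SD of 0.69 on the log2 scale. For log2 IP reads the share was 29.0% in replicate 1 and 34.1% in replicate 2, and for width 1.99%. With only regions whose background was a whole number of input reads in the fragment-length window, the shares for background were 68.8% in replicate 1 (857 regions) and 73.6% in replicate 2 (884 regions). For fold they were 17.0% and 21.5% among those regions. With runs joined at 1 kb, 86.9% and 87.0% of the variance of background and 22.2% of that of fold lay between runs, and at 50 kb 37.3%, 38.4% and 4.89%. Fold and background are not independent measures, since background is the divisor of fold.

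**Figure D5:**
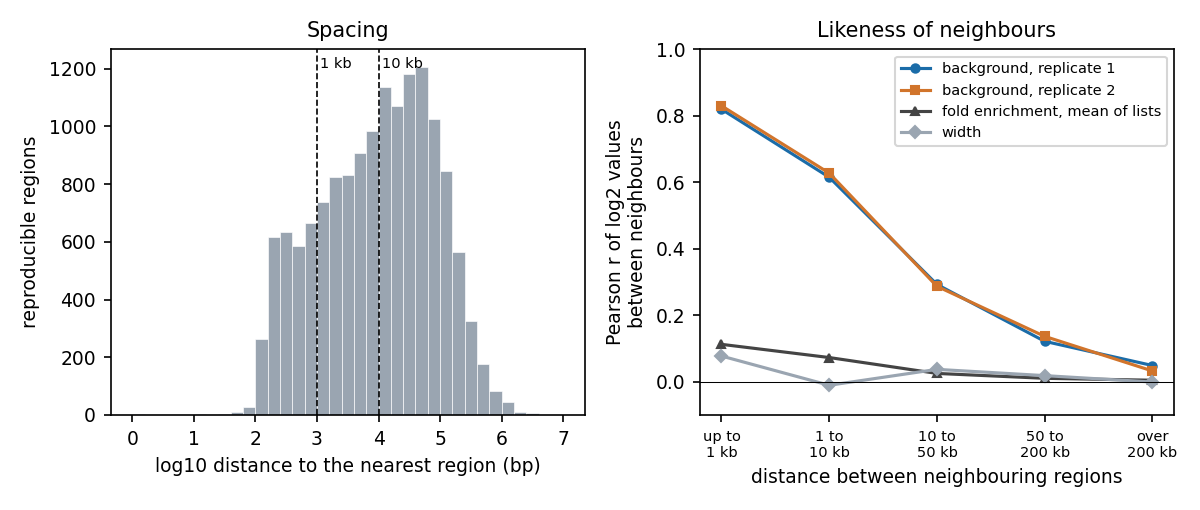
Left, number of reproducible regions by log10 distance in bp to the nearest region, with 1 kb and 10 kb marked. Right, Pearson correlation of log2 values between adjacent regions by their distance: background falls from 0.82 and 0.83 to near 0 with distance, while fold enrichment, as the mean of both lists, and width start at 0.11 and 0.08.

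Of the sequences outside the chromosomes, the mitochondrial genome, GL000220.1 and KI270733.1 had many IP reads over a deep input. On the mitochondrial genome (M), 10 peaks in replicate 1 and 9 in replicate 2 gave 7 reproducible regions. They had 105 to 170 IP reads in replicate 1 and 88 to 180 in replicate 2, but backgrounds with medians of 59.6 and 85.1, and folds of only 1.82 to 3.33 in replicate 1 and 1.59 to 2.51 in replicate 2. The sequences GL000220.1 and KI270733.1 were alike, with 9 and 8 reproducible regions. Their median folds were 3.69 and 3.38 in replicate 1 and 2.67 and 2.71 in replicate 2, with median backgrounds of 25.0 and 38.6 reads in replicate 1 and 47.9 and 70.7 in replicate 2. The other GL and KI sequences with regions had at most 6 each, over lower backgrounds. On GL000194.1, 6 regions had a median fold of 8.28 in replicate 1 and 9.53 in replicate 2 over median backgrounds of 0.581 and 0.666, and on GL000205.2 the 3 regions had 10 to 14 IP reads in replicate 1 and a median background of 0.325.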

How the data were processed

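Peak lists of 2 shGFP replicates were analysed, each from 1 IP and 1 input library by the labels. Among the tools in the submitters' processing notes are MACS2 2.1.1, SAMtools 1.7 and HISAT2 2.1.0. The notes also name the human build hg38, and give no role to a tool or build. The deposited lists follow the narrowPeak layout of MACS2, and no duplicate handling or fragment setting is given in the sources used here. The deposited fold is the ratio of IP over local background at the summit, with 1 read added to both, as found from the lists' own values. The deposited -log10 p and -log10 q are per peak, and the smallest -log10 q was 1.31, which lies just inside a q-value of 0.05. The deposited score is 10 times -log10 q as a whole number.

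IP reads and background were solved from fold and p, searching up to 1000 reads above the smallest possible number. Peaks overlapping by 1 bp or more were joined into regions, whose fold is the mean of the strongest peak of each list. Coordinates are 1-based. Chromosome spans run between outermost peaks. No test was made, as the map is 1 group of 2 lists. Regions were named by rule: the 12 strongest by rank, the 8 widest, the 8 most different each way (above the median fold of a list), the 5 strongest of a single list, and the 10 fullest windows and longest runs, of which the text gives a part. GL and KI sequences were named after their values were seen. The members and rules were chosen with earlier results of these data known. Code was tested on simulated data. Intervals come from scipy 1.17.1 under Python 3.11.15, tables from pandas 2.3.3 and plots from matplotlib 3.10.9. Alternatives were stricter q, other overlap and merging rules, equal list lengths, chromosomes only, other windows and each list alone.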

Additional observations from a re-analysis of the deposited data

How the results depend on the processing

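The 14772 reproducible regions numbered 11663 to 14750 under the other overlap, merging, ranking and sequence settings and 9450 at a -log10 q of at least 10, where the lists kept 11559 and 11901 peaks. The share of replicate 1 peaks found in the other list was 81.7% and 84.2% at -log10 q of at least 5 and 10, 80.4% with equal list lengths, 68.0% at 50% reciprocal overlap and 59.2% with summits at most 100 bp apart. For replicate 2 it was 71.5% and 62.3% under the last pair of settings. Median width was 718 and 824 bp at the stricter -log10 q of 5 and 10, 654 bp under both stricter overlap rules, 728 bp with peaks merged up to 1000 bp apart, and 493 to 518 bp in either list alone. Median fold was 9.48, 10.2 and 12.4 at -log10 q of 2, 5 and 10, 9.63 at 50% overlap, 9.83 by summits, 9.86 with 1000 bp merging, 9.58 with equal list lengths and 7.99 to 8.04 in either list alone. The median distance to the nearest region was 11402, 13670 and 21168 bp at -log10 q of 2, 5 and 10, 13378 bp at 50% overlap, 16541 bp by summits, 11392 and 19181 bp with merging up to 100 and 1000 bp, 11822 bp with equal list lengths, 11338 bp on chromosomes 1 to 22 and X, and 6416 to 6422 bp in either list alone. Chromosome 19 stayed the densest in each of the 3 settings checked for order, at 8.75 regions per Mb with -log10 q of 10, 11.4 with 1000 bp merging and 10.3 by summits. Its density was 11.6 at -log10 q of 5, 11.5 at 50% overlap and 15.9 to 16.8 in either list alone. The sparsest chromosome was 18, or 13 at -log10 q of 10. The densest 1% of occupied windows held 5.38% of regions, 5.001% with 1000 bp merging and 5.38 to 5.69% in either list alone. The fullest window held 19 regions at 100 kb and 181 at 5 Mb. The share of variance between runs was chosen for checking after seeing the data. For background in replicates 1 and 2 it was 86.9% and 87.0% with runs joined at 1 kb, 37.3% and 38.4% at 50 kb, and 68.8% and 73.6% in the fragment-length window, and for fold 22.2% at 1 kb and 4.89% at 50 kb. In each it was higher for background than for fold. The median log2 difference in fold, replicate 2 minus replicate 1, lay between -0.13 and -0.10 in the 9 settings tried. The cause of these shifts was not tested. No paired analysis was possible because the map holds a single group of 2 lists. The weakest peaks rest on 3 IP reads in replicate 1 and 4 in replicate 2. The part of depth in a peak being missing from a list was not tested.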
